A study of Mus musculus with 24 samples.

Results

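The genes described here are 40 members of the cell cycle machinery, measured by RNA sequencing of carotid arteries from ovariectomized mice. They were found by matching the listed symbols to Ensembl gene identifiers through GENCODE release M21, and all 40 were present among 55421 genes listed and 25033 genes tested. The series holds 4 groups of 6 libraries, each from uninjured arteries of C57BL/6 mice labelled as 9 weeks old. The paper states fewer per group for its vehicle and E4 sequencing, and its sequencing results cover no tamoxifen group. Mice received vehicle (titled OVX, with placebo as the treatment), 17β-estradiol (E2), estetrol (E4, a natural estrogen made by the fetal liver) or tamoxifen (TAM, a selective estrogen receptor modulator). All mice, the vehicle group included, lacked ovaries. The estrogens were released from subcutaneous pellets and the load of E4 was larger than that of E2, so E2 and E4 were not compared at equal masses. The study set the loads by their effect on the uterus. The dose and route of tamoxifen in these mice were not given in the sources used here. A library is named by its group and animal number, such as E2 C9.

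A dividing cell copies its DNA in S phase and separates the copies in mitosis. Cyclin-dependent kinases drive both steps, and their partner cyclins are made and destroyed once per cycle. Genes for replication are mainly switched on by E2F factors before S phase, whereas genes for mitosis are held off by the DREAM repressor complex in resting cells and activated later by B-MYB and FOXM1 through CHR elements and CCAAT boxes. In a healthy adult artery, most smooth muscle and endothelial cells rest, and few cells of any type in the wall divide.

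The promoters of the 40 genes were read for these elements. RefSeq promoters of build GRCm38.p6, 250 bases before to 50 bases after each start, were matched by symbol for 34 of the 40 genes (36 promoters). Aurkb, Ccna2, Foxm1, Kif20a, Mcm4 and Tpx2 were not matched. On either strand, a CHR word (TTTGAA or TTTAAA) stood in 90.5% of 21 promoters of mitotic members, in 33.3% of 15 promoters of replication, nucleotide and transcription factor members, and in 27.6% of all 32851 promoters. A CCAAT word stood in 90.5%, 66.7% and 37.4% of the same sets. Both words stood together in 85.7% of mitotic promoters, in 26.7% of the other members' promoters and in 10.7% of all promoters. An E2F word (TTTCGCGC, TTTGGCGC, TTTCCCGC or TTTGCCGC) stood in 4.76%, 33.3% and 2.26%. A full palindromic estrogen response element (GGTCA and TGACC, spaced by 3 bases) stood in 0 of the 36 promoters and in 0.07% of all promoters, which says only that these letters are not in this window. TTTAAA reads the same on both strands, a CHR word and a CCAAT word can share a base at their ends, and a match is a description of the sequence, not of binding.

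The stretch from 150 bases before to 30 bases after the start is shown for the 4 genes that stayed higher with E2 whether or not library E2 C9 was used (Ccnb1, Kif23, Kif11 and Racgap1). Cdc6, the member with the lowest fold change in E4-treated arteries against vehicle, is shown beside them. Capitals mark CHR, CCAAT and E2F words on either strand, each sequence reads 5′ to 3′ along the gene, and coordinates are those of GRCm38.p6.
Ccnb1 (chr13:100786457-100786636, minus strand): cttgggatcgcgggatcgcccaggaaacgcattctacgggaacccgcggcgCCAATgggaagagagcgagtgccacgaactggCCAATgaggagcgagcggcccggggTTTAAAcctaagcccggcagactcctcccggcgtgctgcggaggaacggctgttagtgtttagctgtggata
Kif23 (chr9:61946770-61946949, minus strand): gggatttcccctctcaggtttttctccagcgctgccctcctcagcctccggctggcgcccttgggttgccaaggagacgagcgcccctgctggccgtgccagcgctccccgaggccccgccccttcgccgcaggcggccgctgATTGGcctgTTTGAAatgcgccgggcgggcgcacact
Kif11 (chr19:37376232-37376411, plus strand): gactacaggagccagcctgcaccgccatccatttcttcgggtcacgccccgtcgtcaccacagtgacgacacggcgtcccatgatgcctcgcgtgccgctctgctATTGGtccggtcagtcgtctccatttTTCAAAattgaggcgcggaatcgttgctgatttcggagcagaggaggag
Racgap1 (chr15:99651627-99651806, minus strand): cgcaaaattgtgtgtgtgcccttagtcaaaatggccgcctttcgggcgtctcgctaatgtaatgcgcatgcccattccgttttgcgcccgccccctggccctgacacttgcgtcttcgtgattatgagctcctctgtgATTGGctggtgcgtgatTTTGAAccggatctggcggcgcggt
Cdc6 (chr11:98908001-98908180, plus strand): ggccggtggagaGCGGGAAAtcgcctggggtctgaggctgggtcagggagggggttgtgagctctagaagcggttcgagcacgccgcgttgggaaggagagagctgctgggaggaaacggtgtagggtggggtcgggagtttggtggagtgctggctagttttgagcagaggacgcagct
The first 4 stretches each hold a CCAAT word upstream of a CHR word, and Ccnb1 holds 2 CCAAT words. The Cdc6 stretch holds an E2F word and neither of the others.

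The libraries held 24647246 to 64221401 counts (median 45156106), and smooth muscle and endothelial markers were present throughout, with summed levels of 2328 to 8341 and 474 to 1081 CPM (counts scaled to library size). Some libraries held other tissue. E2 C9 carried markers of immature thymocytes, which divide rapidly, and of epithelium. Its Rag1 was 204.6 CPM against at most 9.09 CPM in every other library, and its Dntt was 65.5 CPM against at most 3.86 CPM. Krt5, an epithelial keratin, was 16.6 CPM there and at most 0.0945 CPM elsewhere. The same library was the highest of its group for 38 of the 40 cell cycle genes, the highest of all 24 libraries for 33, and more than 1.5-fold above every other E2 library for 22. The main counts, medians and tests that use E2 libraries are therefore given with and without E2 C9. Vehicle C5 and TAM C35 were low in sympathetic ganglion markers (40.3 and 172 CPM summed, against at least 1350 CPM elsewhere), and E4 C38 held parathyroid hormone RNA (2914 CPM) and had the lowest depth.

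The members were expressed at low levels in vehicle-treated arteries. By level per kilobase of merged exon, the highest median belonged to Pcna, the sliding clamp of the replication fork (8.43 CPM per kb), followed by the helicase subunits Mcm6 (5.08 CPM per kb) and Mcm4 (2.76 CPM per kb). The lowest were Ccnb1 (0.0785 CPM per kb), the centromere protein Cenpf (0.0710 CPM per kb) and the checkpoint kinase Bub1 (0.0535 CPM per kb). The depth behind the low genes was small. Bub1 had 7 to 19 counts and Ccnb1 10 to 24 counts in the vehicle libraries, whereas Rrm1, the large subunit of ribonucleotide reductase, had 1058 to 1847. The lowest count of any member in any library was 5, and 5 members fell under 10 counts somewhere. In whole-tissue RNA, a smaller number of dividing cells and less RNA per dividing cell cannot be told apart.

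Some members share sequence or exons with other genes, and their values are uncertain. Exons of 12 members overlap another gene, and the strand setting of the counting was not given in the sources used here. Ube2c, the ubiquitin-conjugating enzyme of the anaphase-promoting complex, lies antisense to Tnnc2, a troponin of fast skeletal muscle. In 6 libraries from all 4 groups Tnnc2 was 1.76 to 5.40 CPM, and Ube2c was 2.13 to 7.08 CPM there. In the other 18 libraries Tnnc2 was at most 0.582 CPM and Ube2c was 0.220 to 0.973 CPM, so the ranges of Ube2c did not meet. The muscle myosin Myh4 split the same way, with 18.3 to 55.2 CPM against at most 2.71 CPM. Whether Ube2c reads came from Tnnc2 RNA was not tested. Pseudogene copies were counted beside Pcna (Pcna-ps2, 951 to 2833 counts), Ccnb1 (Ccnb1-ps, 2 to 114 counts), Ccnb2 and Tyms, so reads could be divided between the copies.

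**Figure D1:**
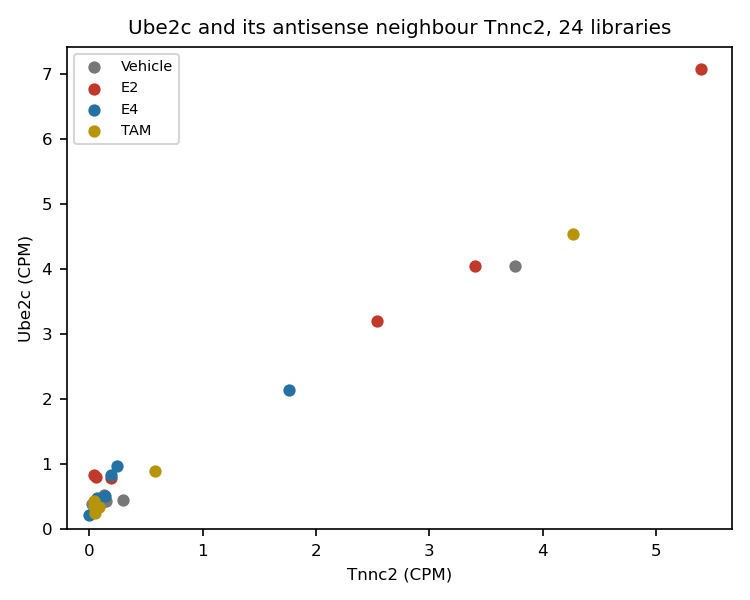
Ube2c against Tnnc2 in CPM, 1 point per library, coloured by group. The 6 libraries with Tnnc2 of 1.76 CPM or more have Ube2c of 2.13 to 7.08 CPM, and the other 18 sit near the origin with Ube2c under 1 CPM.

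The comparison of E2 with vehicle asks which genes respond to the main ovarian estrogen. With E2, 7 of the 40 genes were higher and 0 lower at an adjusted P value under 0.05, beside 4.16% of all 25033 genes tested (2.88% higher, 1.28% lower). The 7 were Kif23, Ccnb1, Racgap1, Kif11, Cdc20, Mcm2 and Birc5. At an unadjusted P value under 0.05 there were 21 of the 40, beside 16% of all genes. Without E2 C9 there were 12 of the 40, beside 3659 of 25213 genes. With all libraries, the median log2 fold change of the 40 genes was 0.46, against 0.006 over all genes, and 38 of the 40 were positive. Without E2 C9, 4 of the 40 were higher (Racgap1, Ccnb1, Kif23 and Kif11), beside 3.47% of all genes, the median was 0.25 and 34 of the 40 were positive. P values come from the quasi-likelihood test of edgeR, adjusted over all genes by the Benjamini-Hochberg method, and log2 fold changes carry their standard error (SE).

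Ccnb1 encodes cyclin B1, the partner that brings CDK1 into mitosis. Its level was 0.256, 0.331 and 0.446 CPM (lowest, median and highest of 6) in vehicle libraries and 0.493, 0.806 and 3.22 CPM in E2 libraries. All E2 libraries lay above all vehicle libraries, and E2 C9 lay far above the other 5, whose highest was 1.21 CPM. The log2 fold change was 1.75 (SE 0.37, adjusted P = 0.00558, edgeR), and 1.149 (SE 0.27, adjusted P = 0.0146) without E2 C9. Racgap1, part of the centralspindlin complex that positions the cleavage furrow, was 2.10, 2.51 and 2.86 CPM with vehicle and 2.98, 3.84 and 6.88 CPM with E2. These groups did not overlap either. Its log2 fold change was 0.72 (SE 0.16, adjusted P = 0.0068), and 0.50 (SE 0.11, adjusted P = 0.00983) without E2 C9.

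Kif23 encodes the motor of the same centralspindlin complex. It was 1.25, 1.49 and 2.57 CPM with vehicle and 2.39, 2.96 and 6.05 CPM with E2. The groups overlapped through vehicle C5, the highest vehicle library, which lay above the lowest E2 library. Kif23 had a log2 fold change of 1.06 (SE 0.22, adjusted P = 0.00475), and 0.84 (SE 0.20, adjusted P = 0.0158) without E2 C9. Kif11, the motor that pushes the spindle poles apart, was 1.36, 1.47 and 2.02 CPM with vehicle and 1.70, 2.93 and 11.2 CPM with E2, where E2 C9 exceeded the next library, at 3.52 CPM. Its log2 fold change of 1.35 (SE 0.33, adjusted P = 0.018) became 0.72 (SE 0.20) without E2 C9 and stayed just past the threshold (adjusted P = 0.0499).

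The other 3 genes lost their call without E2 C9. Cdc20, an activator of the anaphase-promoting complex, was 0.281, 0.402 and 0.690 CPM with vehicle and 0.592, 0.757 and 2.09 CPM with E2, and its log2 fold change of 1.09 (SE 0.28, adjusted P = 0.0233) fell to 0.71 (adjusted P = 0.0791). Mcm2, a helicase subunit, was 4.18, 5.07 and 5.66 CPM with vehicle and 6.07, 6.42 and 10.99 CPM with E2. Its groups did not overlap with or without E2 C9, and its log2 fold change was 0.52 (SE 0.13, adjusted P = 0.0277), or 0.36 (adjusted P = 0.0720) without that library. Birc5 (survivin, of the chromosomal passenger complex) was 1.16, 1.45 and 1.94 CPM with vehicle and 1.73, 2.16 and 6.18 CPM with E2. It had a log2 fold change of 0.91 (SE 0.25, adjusted P = 0.0379), or 0.51 (adjusted P = 0.114) without E2 C9. In all, 4 of the 40 genes had E2 libraries wholly above vehicle, with or without E2 C9, beside 2.00% of all genes with all libraries, and 0 wholly below, beside 0.831%. The fourth, after Ccnb1, Racgap1 and Mcm2, was the spindle factor Tpx2 (1.71 to 2.04 CPM against 2.10 to 6.16 CPM), which did not pass the test (adjusted P = 0.105) and is named after its values were seen.

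Mki67, the common marker of cycling cells, did not pass the test. It was 3.00, 5.41 and 6.54 CPM with vehicle and 4.19, 8.17 and 37.4 CPM with E2, where the 37.4 CPM belonged to E2 C9 and the highest of the others was 9.47 CPM. The groups overlapped. The log2 fold change was 1.26 (SE 0.40, adjusted P = 0.0832), with a 95% confidence interval of 0.42 to 2.09, and 0.46 (SE 0.26, adjusted P = 0.44) without E2 C9.

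**Figure D2:**
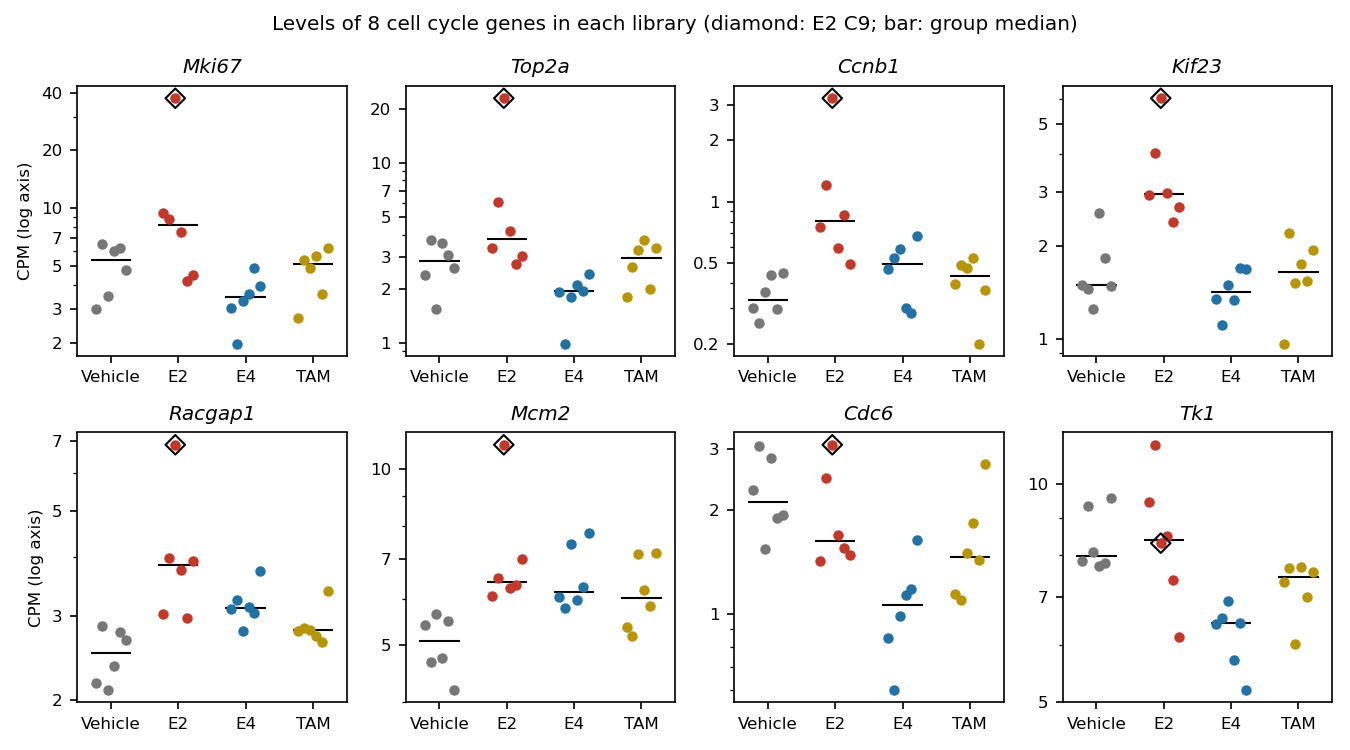
CPM on a log axis for 8 genes, 1 point per library in animal order within the 4 groups, with a bar at the group median and a diamond around E2 C9. For Mki67 the diamond is at 37.4 CPM and the other E2 points are at 4.19 to 9.47 CPM. For Ccnb1, Racgap1 and Mcm2 every E2 point is above every vehicle point, and for Tk1 every E4 point is below every vehicle point.

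By role, the median log2 fold change was 1.25 over 4 checkpoint and anaphase-promoting complex genes (1 higher), 0.97 over 6 chromosome and centromere genes (1 higher), 0.87 over 7 mitotic cyclins and kinases (1 higher) and 0.64 over 7 spindle and cytokinesis genes (3 higher). It was 0.34 over 3 transcription factors (0 changed), 0.11 over 9 replication genes (1 higher) and 0.06 over 4 nucleotide synthesis genes (0 changed). Members of different roles overlapped, from -0.08 to 1.32 over chromosome and centromere genes and from -0.21 to 0.52 over replication genes, and the difference between roles was not tested. Without E2 C9, these medians were 0.80, 0.45, 0.55, 0.31, 0.16, 0.07 and 0.04 in the same order. The calls that remained were then 1 cyclin, Ccnb1, and 3 spindle and cytokinesis genes. Among the 7 genes called with all libraries, 6 had both a CHR and a CCAAT word in the promoter, all but Birc5, and 0 had an E2F word. Both words stood in 61.1% of all member promoters and in 85.7% of those of mitotic members. Of the 7 genes, all but Mcm2 are mitotic members. Of the genes lower in other comparisons, both words stood in 11 of 17 with a promoter for E4 against E2 (2 with an E2F word), 1 of 4 for E4 against vehicle (1 with an E2F word) and 5 of 8 for TAM against E2.

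Macrophage markers moved with E2 beside these genes. All 8 markers on the list were higher with E2 at an adjusted P value under 0.05 (7 of 8 without E2 C9), with a median log2 fold change of 0.90, and their summed level was 341 to 611 CPM with vehicle, 657 to 877 CPM with E2, 263 to 508 CPM with E4 and 347 to 428 CPM with TAM. The highest vehicle sum was that of vehicle C5, which was also the highest vehicle library for Kif23. With the macrophage marker mean as a covariate, 0 of the 40 genes were called in E2 against vehicle by edgeR (2 at an unadjusted P value under 0.05, beside 7773 of 25033 genes), although 3.56% of all genes still were. The log2 fold change of Kif23 was then 0.47 (adjusted P = 0.387) and that of Ccnb1 1.154 (adjusted P = 0.261). Since every E2 library had a higher macrophage sum than every other library, treatment and marker level cannot be told apart here. Thymocyte markers other than Cd1d1 summed to 326 CPM in E2 C9, at most 14.1 CPM in other E2 libraries and 1.13 to 17.6 CPM with vehicle. E2 C9 had a macrophage sum of 773 CPM, within the range of the other E2 libraries. All 9 B cell markers had negative log2 fold changes with E2 (median -0.87, or -0.85 without E2 C9). Of them 0 were called (edgeR, 5 at an unadjusted P value under 0.05). Germinal centre and plasma cell markers were higher with E2 for 2 of 5 tested (S1pr2 and Xbp1, also without E2 C9), and the 7 on the list summed to 216.8 to 245.6 CPM with E2, 159.1 to 189 CPM with vehicle, 162.6 to 202.1 CPM with E4 and 170.5 to 194.4 CPM with TAM, so that this sum too was highest in the E2 libraries. Markers of neutrophils and granulocyte precursors were higher for 1 of 7 (Prtn3, also without E2 C9), with sums of 1.88 to 25.4 CPM with vehicle and 16.02 to 76.55 CPM with E2. The part of these cells in the result was not tested.

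**Figure D3:**
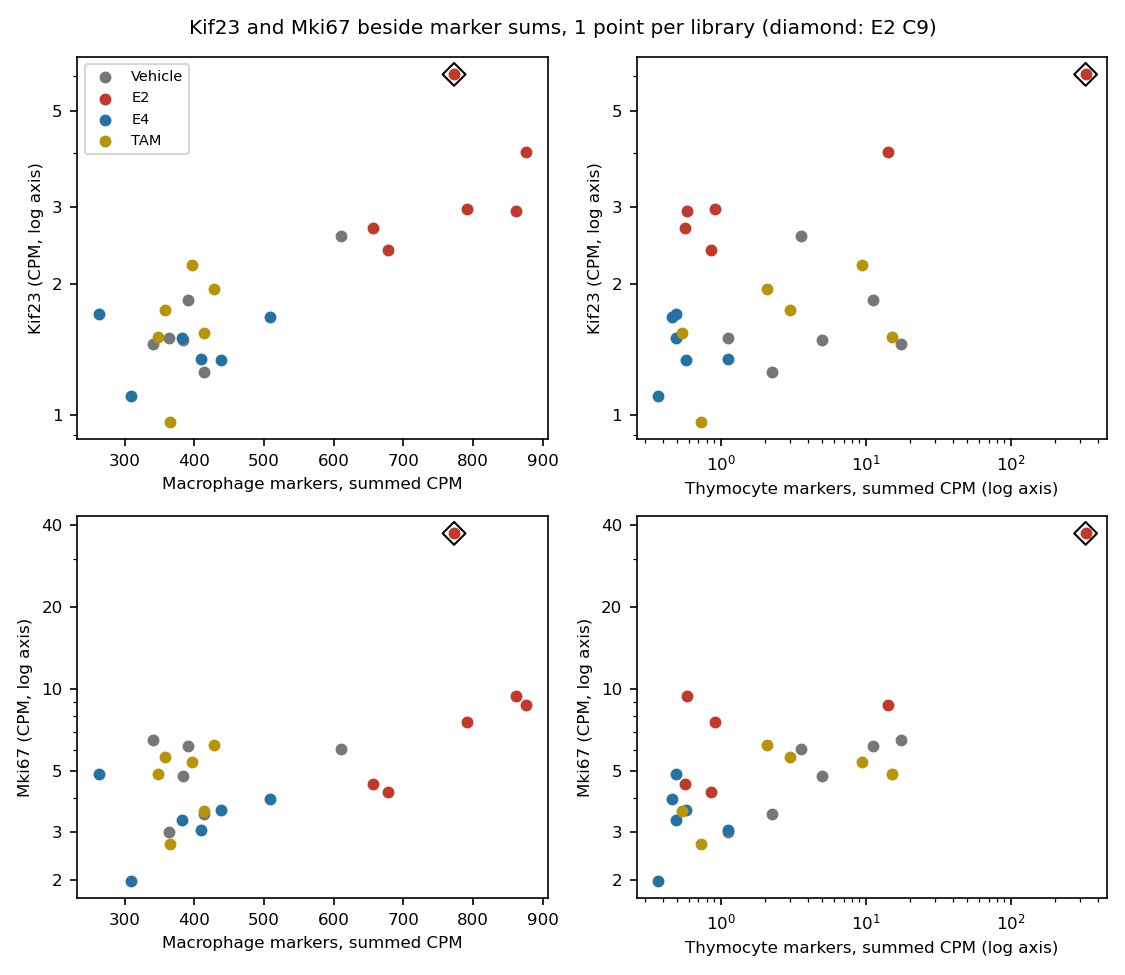
Kif23 (top) and Mki67 (bottom) in CPM on a log axis against the summed CPM of 8 macrophage markers (left) and of 5 thymocyte markers (right, log axis), 1 point per library coloured by group, with a diamond around E2 C9. The 6 E2 libraries lie at 657 to 877 CPM of macrophage markers, to the right of every other library, and E2 C9 alone lies at 326 CPM of thymocyte markers.

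The animal numbers fall into 2 series, up to 20 and from 24, which the labels do not call batches. E2 C9 belongs to the first. Within the first series 2 of the 40 genes were called in E2 against vehicle, and within the second series, with fewer vehicle libraries, 0 were (edgeR, 3 at an unadjusted P value under 0.05), beside 1.34% and 0.361% of all genes. The log2 fold changes of the first and second series were 1.36 (SE 0.33) and 0.68 (SE 0.20) for Kif23, 2.33 (SE 0.42) and 0.80 (SE 0.50) for Ccnb1, 0.96 (SE 0.23) and 0.37 (SE 0.19) for Racgap1, and 1.89 (SE 0.39) and 0.46 (SE 0.34) for Kif11. All of these kept their direction in both series. Mki67, which was not called with all libraries, turned slightly negative in the second series. The difference between the series was tested as an interaction, and 0 of the 40 genes and 0 of all genes were called (edgeR, 7 of the 40 and 859 of 25033 genes at an unadjusted P value under 0.05).

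The comparison of E4 with vehicle asks the same of a weaker natural estrogen. With E4, 1 of the 40 genes was higher (Mcm2) and 4 were lower (Cdc6, Tk1, Rrm1 and Prc1). Of all genes, 22% were called (9.52% higher, 12.5% lower). The median log2 fold change of the 40 was -0.16. E2 C9 is in neither of these groups but entered the shared fit, and without it 2 were higher and 7 lower, beside 22.1% of all genes.

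Cdc6 loads the replicative helicase onto origins before S phase. It was 1.54, 2.11 and 3.07 CPM with vehicle and 0.599, 1.06 and 1.63 CPM with E4, so that only the highest E4 library, C39, reached the vehicle range. The log2 fold change was -1.08 (SE 0.26, adjusted P = 0.00628, edgeR). Tk1, the S-phase thymidine kinase of the salvage pathway, was 7.71, 7.96 and 9.58 CPM with vehicle and 5.21, 6.44 and 6.89 CPM with E4, without overlap. Its log2 fold change was -0.43 (SE 0.11, adjusted P = 0.0103), and its exons overlap those of Afmid. Rrm1 was 25.95, 26.9 and 31.4 CPM with vehicle and 22.9, 23.6 and 26 CPM with E4, a log2 fold change of -0.21 (SE 0.06, adjusted P = 0.0223). The difference was small and the groups met at their edge. Prc1, which bundles microtubules of the central spindle, was 3.31, 4.14 and 4.91 CPM with vehicle and 2.70, 3.19 and 3.53 CPM with E4 (log2 fold change -0.38, SE 0.14, adjusted P = 0.0488).

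Mcm2 went the other way. Against the vehicle values above, it was 5.78, 6.16 and 7.77 CPM with E4, above every vehicle library, with a log2 fold change of 0.38 (SE 0.14, adjusted P = 0.0468). It was thus higher with E2 and with E4 against the same vehicle libraries. The genes without overlap were Mcm2 (1 of 40 higher, beside 5.30% of all genes) and Tk1 (1 of 40 lower, beside 4.07%). The 5 other subunits of the MCM helicase, Mcm3 to Mcm7, were not called. Mki67 was 1.98, 3.45 and 4.90 CPM with E4, below most vehicle values but overlapping them, with a log2 fold change of -0.53 (SE 0.41, adjusted P = 0.354, 95% confidence interval -1.38 to 0.31).

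The genes gained when E2 C9 was left out, named after their values were seen, were the centromere genes Cenpa, Cenpe and Cenpf and the cytokinesis gene Racgap1. Their log2 fold changes with all libraries were -0.59 for Cenpa (adjusted P = 0.0651), -0.79 for Cenpe (adjusted P = 0.133), -0.83 for Cenpf (adjusted P = 0.112) and 0.35 for Racgap1 (adjusted P = 0.106). Leaving out vehicle C5 left 2 of the 40 genes called, beside 16.2% of all genes, and several other single libraries left 3. B cell markers were lower with E4, 8 of 9 of them at an adjusted P value under 0.05, with sums of 6.32 to 41.1 CPM with vehicle and 3.53 to 8.22 CPM with E4. Fibroblast markers were lower for 4 of 6, and without E2 C9 so were 7 of 8 T cell and 3 of 4 tested thymocyte markers, of which 0 were called with all libraries (edgeR, 2 and 3 at an unadjusted P value under 0.05). Of 6 adipocyte markers 1 was higher and 2 were lower, and of 3 tested epithelium markers 2 were higher (11.66 to 37.53 CPM summed with E4, 7.38 to 11.2 CPM with vehicle), with or without E2 C9. The part of fibroblasts, adipocytes and epithelium in the result was not tested. All 10 sympathetic ganglion markers had positive log2 fold changes (median 0.97), of which 1 was called (Chga), and their sums were 2871 to 6326 CPM with E4 and 40.3 to 3617 CPM with vehicle. Adding the mean of these markers to the fit left 3 of the 40 genes called, beside 18.5% of all genes. With the B cell marker mean as a covariate, 0 of the 40 genes were called (3 at an unadjusted P value under 0.05), beside 0.356% of all genes, and the log2 fold change of Cdc6 was -0.80 (adjusted P = 0.335) and that of Tk1 -0.40 (adjusted P = 0.295). Within the number series, Cdc6 gave -1.58 (SE 0.32) in the first and -0.53 (SE 0.28) in the second, and Tk1 gave -0.32 (SE 0.13) and -0.58 (SE 0.16).

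The direct comparison of the estrogens asks where E4 and E2 differ at the loads used. With E4, 18 of the 40 genes were lower than with E2 and 0 higher, beside 8.97% of all genes lower and 3.55% higher (12.5% called). The median log2 fold change was -0.55 and all 40 were negative. At an unadjusted P value under 0.05 there were 32 of the 40, beside 30.2% of all genes. Without E2 C9 there were 20 of the 40, beside 6155 of 25213 genes. With all libraries, 12 were called with an absolute log2 fold change over 1, beside 2.47% of all genes. Without E2 C9 there were 4, and the share of all genes past that fold was not computed for that fit. This comparison shares its E2 libraries with the comparison to vehicle above. Without E2 C9, 9 were lower and 0 higher, beside 7.12% of all genes, the median was -0.33 and 2 of the 40 were positive. Those 9 were Kif23, Cenpf, Kif11, Top2a, Rrm1, Tk1, Mki67, Ccnb2 and Aurkb.

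Kif23 was 1.11, 1.42 and 1.70 CPM with E4, below every E2 library (2.39 to 6.05 CPM), with a log2 fold change of -1.28 (SE 0.23, adjusted P = 0.000904), or -1.06 (SE 0.20, adjusted P = 0.00241) without E2 C9. Cenpf, a kinetochore protein, was 1.11, 1.40 and 5.92 CPM with E2 and 0.462, 0.603 and 0.774 CPM with E4. It gave a log2 fold change of -1.85 (SE 0.37, adjusted P = 0.00291), or -1.27 (SE 0.27, adjusted P = 0.00659) without E2 C9. Top2a, the topoisomerase that untangles sister chromatids, was 2.75, 3.79 and 22.9 CPM with E2 and 0.991, 1.93 and 2.41 CPM with E4. It also separated the groups fully, with a log2 fold change of -1.92 (SE 0.43, adjusted P = 0.0062) that became -1.06 (SE 0.26, adjusted P = 0.0155) without E2 C9.

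Mki67 was lower with E4 than with E2 (1.98 to 4.90 CPM against 4.19 to 37.4 CPM), with a log2 fold change of -1.79 (SE 0.41, adjusted P = 0.00779), or -0.999 (SE 0.27, adjusted P = 0.0271) without E2 C9. The ranges overlapped. Kif11 gave -1.502 (SE 0.34, adjusted P = 0.00686) and -0.87 (SE 0.21, adjusted P = 0.0136) without E2 C9. The cyclin B2 gene Ccnb2 was 0.881, 1.27 and 3.57 CPM with E2 and 0.192, 0.675 and 0.828 CPM with E4, without overlap, and gave -1.37 (SE 0.32, adjusted P = 0.00815) and -0.96 (SE 0.26, adjusted P = 0.0285). The kinase gene Aurkb, of the chromosomal passenger complex, was 1.06, 1.43 and 3.72 CPM with E2 and 0.230, 0.618 and 1.22 CPM with E4. It gave -1.48 (SE 0.36, adjusted P = 0.0109) and -1.14 (SE 0.33, adjusted P = 0.0402) without E2 C9.

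Among the nucleotide synthesis genes, Rrm1 and Tk1 kept their call without E2 C9 and Rrm2 did not. Rrm1 was 26.5, 28.7 and 33.5 CPM with E2, above all E4 libraries, with a log2 fold change of -0.29 (SE 0.06, adjusted P = 0.00487), or -0.25 (adjusted P = 0.0165) without that library. Tk1 was 6.16, 8.39 and 11.3 CPM with E2, overlapping E4, and gave -0.46 (SE 0.11, adjusted P = 0.0129), or -0.46 (adjusted P = 0.024) without it. For Tk1, E2 C9 was not the highest library of its group. Rrm2, the small reductase subunit that is made in S phase, gave -1.03 (SE 0.33, adjusted P = 0.0431) with all libraries and -0.36 (adjusted P = 0.211) without E2 C9, where it was 9.27 CPM against at most 2.48 CPM in other E2 libraries.

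The other genes called only with E2 C9 present were Bub1 (log2 fold change -1.94, adjusted P = 0.0149), Nusap1 (-0.57, adjusted P = 0.0184), Birc5 (-0.93, adjusted P = 0.0203), Cdk1 (-1.17, adjusted P = 0.0207), Cenpe (-1.35, adjusted P = 0.0214), Prc1 (-0.49, adjusted P = 0.0221), Ccnb1 (-1.30, adjusted P = 0.0245) and Cdc6 (-0.88, adjusted P = 0.0313). They encode a checkpoint kinase, a spindle protein, survivin, the mitotic kinase, a kinetochore motor, a microtubule bundler, a cyclin and the origin loader. All 8 kept a negative sign without E2 C9, with log2 fold changes from -1.27 for Bub1 to -0.36 for Prc1. In all, 6 of the 40 genes had E4 libraries wholly below E2, with or without E2 C9 (Cenpf, Top2a, Ccna2, Ccnb2, Rrm1 and Kif23), beside 4.13% of all genes with all libraries. Ccna2, the cyclin of S phase and early mitosis, is named here after its values were seen (4.74 to 10.97 CPM with E2, 3.20 to 4.69 CPM with E4, adjusted P = 0.0509), and its exons overlap those of Exosc9.

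By role, E4 against E2 gave a median log2 fold change of -1.57 over chromosome and centromere genes (5 of 6 lower), -1.17 over mitotic cyclins and kinases (4 of 7 lower), -1.15 over checkpoint and anaphase-promoting complex genes (1 of 4 lower) and -0.57 over spindle and cytokinesis genes (4 of 7 lower). It was -0.43 over transcription factors (0 of 3), -0.38 over nucleotide synthesis genes (3 of 4 lower) and -0.20 over replication genes (1 of 9 lower). Without E2 C9, 3 of 6, 2 of 7, 0 of 4, 2 of 7, 0 of 3, 2 of 4 and 0 of 9 were lower in the same order, and the medians were -0.88, -0.70, -0.82, -0.36, -0.20, -0.31 and -0.16. All 8 macrophage markers were lower with E4 than with E2, with or without E2 C9. Also lower were 4 of 6 fibroblast markers (3 without E2 C9) and 2 of 5 germinal centre and plasma cell markers (2 without it). With all libraries 6 of 8 T cell, 3 of 4 thymocyte and 4 of 7 neutrophil markers were lower, and 0 of these were called without E2 C9. Their median log2 fold changes were -2.9, -6.04 and -1.83 with all libraries. Without E2 C9 they were -0.88, -2.34 and -1.8. Of the Schwann and satellite glia markers, 3 of 6 were higher (2 without it). The part of fibroblasts, plasma cells, neutrophils and glia in the result was not tested. With the macrophage marker mean as a covariate, 0 of the 40 genes were called (edgeR, 3 at an unadjusted P value under 0.05), as were 0 of all 25033 genes, and Kif23 gave -0.59 (adjusted P = 0.438). Cdk1 turned positive with this covariate, and Aurkb, Rrm2 and Rrm1 also did when E2 C9 was left out as well. With the immature thymocyte marker mean as a covariate, 5 of the 40 were called, beside 4.36% of all genes. Within the first number series 18 of the 40 were lower and within the second 0 were (edgeR, 5 at an unadjusted P value under 0.05), beside 12.6% and 0% of all genes, and Kif23 gave -1.72 (SE 0.36) and -0.76 (SE 0.18).

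**Figure D4:**
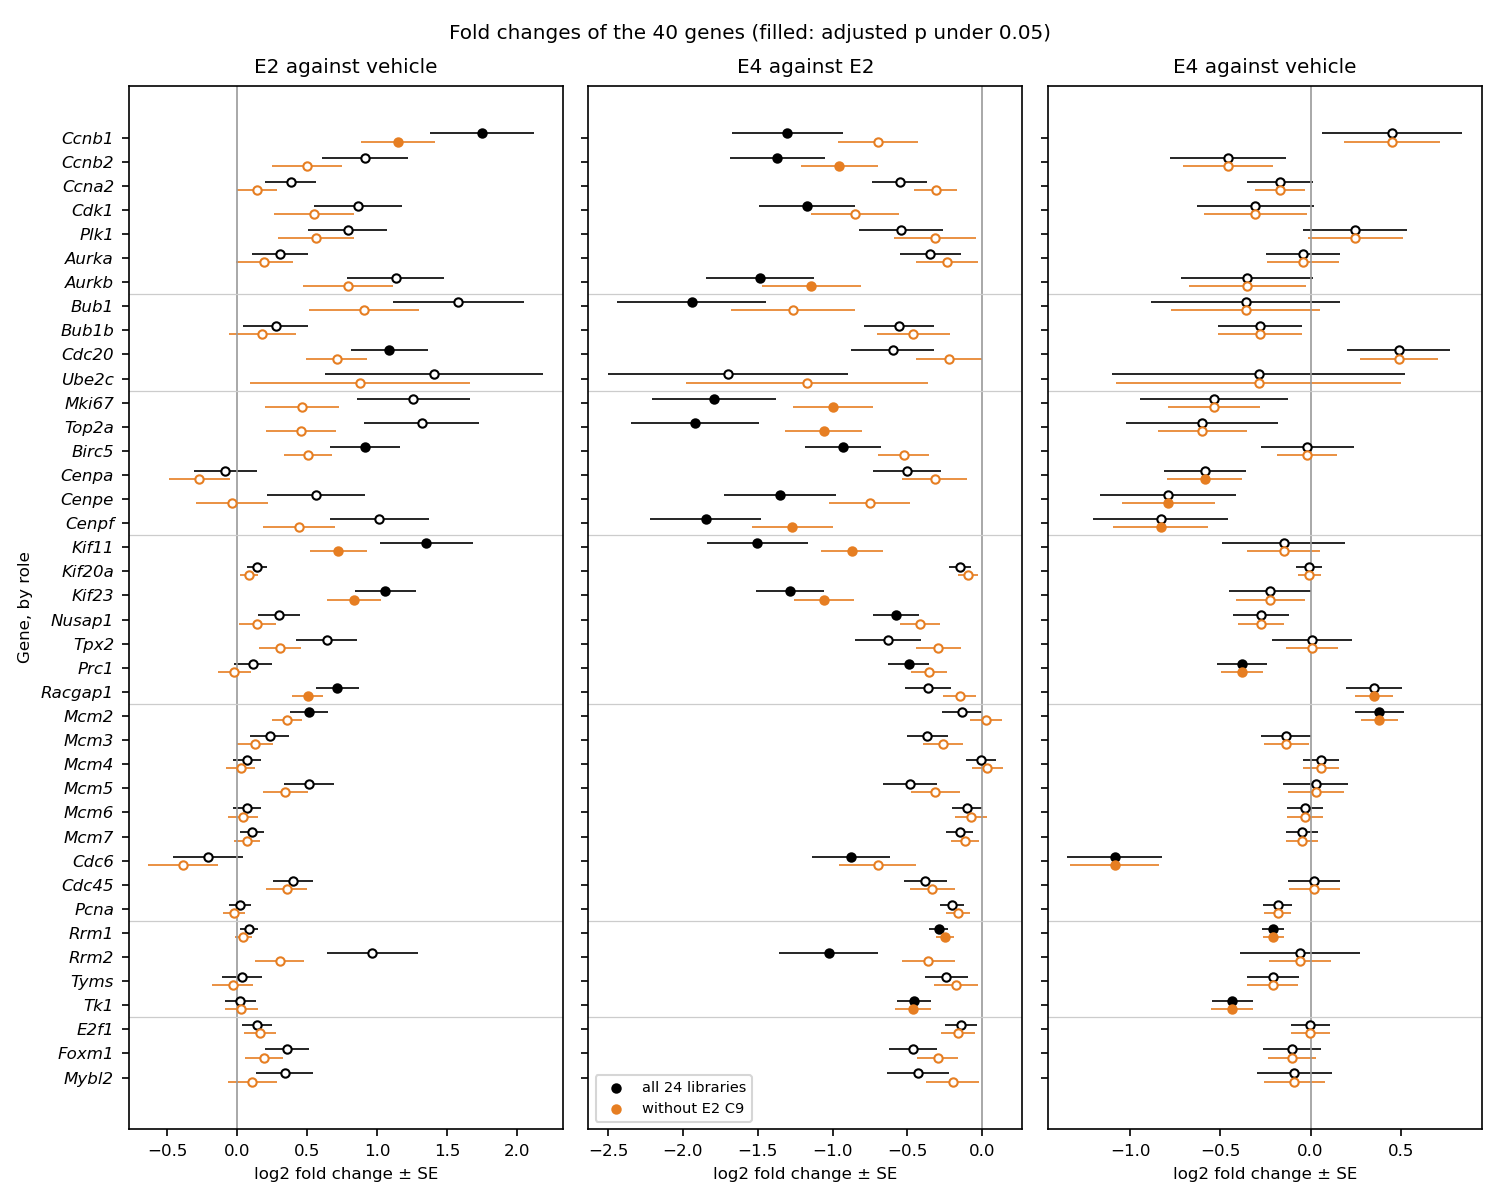
Log2 fold change with SE for each of the 40 genes, ordered by role, in E2 against vehicle, E4 against E2 and E4 against vehicle. Black points are the fit of 24 libraries and orange points the fit without E2 C9, and filled points have an adjusted P value under 0.05. In E4 against E2, 18 black and 9 orange points are filled, all left of 0, and in E4 against vehicle the orange and black points coincide in value.

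Tamoxifen did not give a called change against vehicle. By edgeR, 0 of the 40 genes were called and 4 had an unadjusted P value under 0.05, beside 2.21% of all genes called (1.29% higher, 0.919% lower) and 21% at an unadjusted P value under 0.05. DESeq2 also called 0 of the 40, beside 6.52% of all genes. The edgeR median log2 fold change was -0.02. The 3 smallest P values belonged to Prc1, Rrm1 and Pcna. Prc1 was 2.51, 3.09 and 3.46 CPM with TAM, with a median below the lowest vehicle library and an overlap at the edge (log2 fold change -0.39, SE 0.14, adjusted P = 0.105). Rrm1 was 23.0, 25.1 and 27.8 CPM (-0.14, adjusted P = 0.201) and Pcna was 16.5, 17.3 and 20.8 CPM against 17.97, 20.2 and 22.4 CPM with vehicle (-0.18, adjusted P = 0.204). Mki67 was 2.70, 5.16 and 6.24 CPM with TAM, across the vehicle range, with a log2 fold change of -0.08 (SE 0.40, adjusted P = 0.938) and a 95% confidence interval of -0.91 to 0.75. All 6 TAM libraries were below all 6 vehicle libraries for 1 of the 40 genes, Tk1 (6.02 to 7.69 CPM against 7.71 to 9.58 CPM), beside 1.09% of all genes, but it did not pass the test (adjusted P = 0.272).

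Against E2, TAM gave 8 of the 40 genes lower and 0 higher, beside 6.44% of all genes called (4.51% lower). They were Kif23, Ccnb1, Birc5, Bub1, Prc1, Rrm1, Racgap1 and Mki67, and the median log2 fold change of the 40 was -0.45. Without E2 C9, 2 were lower, beside 4.08% of all genes, and the median was -0.24. Kif23 was 0.964, 1.65 and 2.21 CPM with TAM, below every E2 library, with a log2 fold change of -1.09 (SE 0.22, adjusted P = 0.00333), or -0.86 (SE 0.20, adjusted P = 0.0112) without E2 C9. Of the 40 genes, 1 separated these groups, beside 3.13% of all genes. Birc5 was 1.16, 1.28 and 1.79 CPM with TAM and gave -1.01 (SE 0.25, adjusted P = 0.0175), or -0.60 (SE 0.17, adjusted P = 0.0467). The other 6 lost their call without E2 C9, where Ccnb1 gave -0.92 (adjusted P = 0.0511), Bub1 -1.14 (adjusted P = 0.118), Prc1 -0.37 (adjusted P = 0.0848), Rrm1 -0.18 (adjusted P = 0.0978), Racgap1 -0.30 (adjusted P = 0.143) and Mki67 -0.54 (adjusted P = 0.296). With all libraries they gave -1.52 for Ccnb1, -1.81 for Bub1, -0.50 for Prc1, -0.23 for Rrm1, -0.51 for Racgap1 and -1.34 for Mki67. Against E2, all 8 macrophage markers and 4 of 5 tested erythroid precursor markers were lower with TAM, with or without E2 C9. So were 2 of 6 adipocyte markers and 2 of 5 germinal centre and plasma cell markers. Erythroid markers summed to 683.2 to 1823 CPM with TAM and 1516 to 7091 CPM with E2. The part of erythroid cells, adipocytes and plasma cells in the result was not tested. The macrophage covariate left 0 of the 40 called (1 at an unadjusted P value under 0.05), beside 2.67% of all genes. In the first number series 7 of the 40 were lower and in the second 0 (edgeR, 1 at an unadjusted P value under 0.05), beside 4.58% and 0.451% of all genes, and Kif23 gave -1.49 (SE 0.36) and -0.60 (SE 0.18).

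Between TAM and E4, 0 of the 40 genes were called by edgeR (3 at an unadjusted P value under 0.05). Beside them, 0.34% of all genes were called and 9.12% had an unadjusted P value under 0.05. DESeq2 also called 0 of the 40, beside 0.815% of all genes. The edgeR median log2 fold change was 0.13. The 3 smallest P values were those of Cenpf, Cdc6 and Foxm1. Cenpf was 0.806, 1.20 and 1.62 CPM with TAM, above every E4 library, with a log2 fold change of 0.96 (SE 0.37, adjusted P = 0.416). It was the 1 gene of the 40 whose groups were apart, beside 0.507% of all genes. Cdc6 was 1.09, 1.46 and 2.71 CPM with TAM (0.60, SE 0.26, adjusted P = 0.486). Foxm1, a transcription factor of mitotic genes, was 2.62, 3.21 and 3.75 CPM with TAM against 1.91, 2.53 and 2.99 CPM with E4 (0.36, SE 0.16, adjusted P = 0.494).

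**Figure D5:**
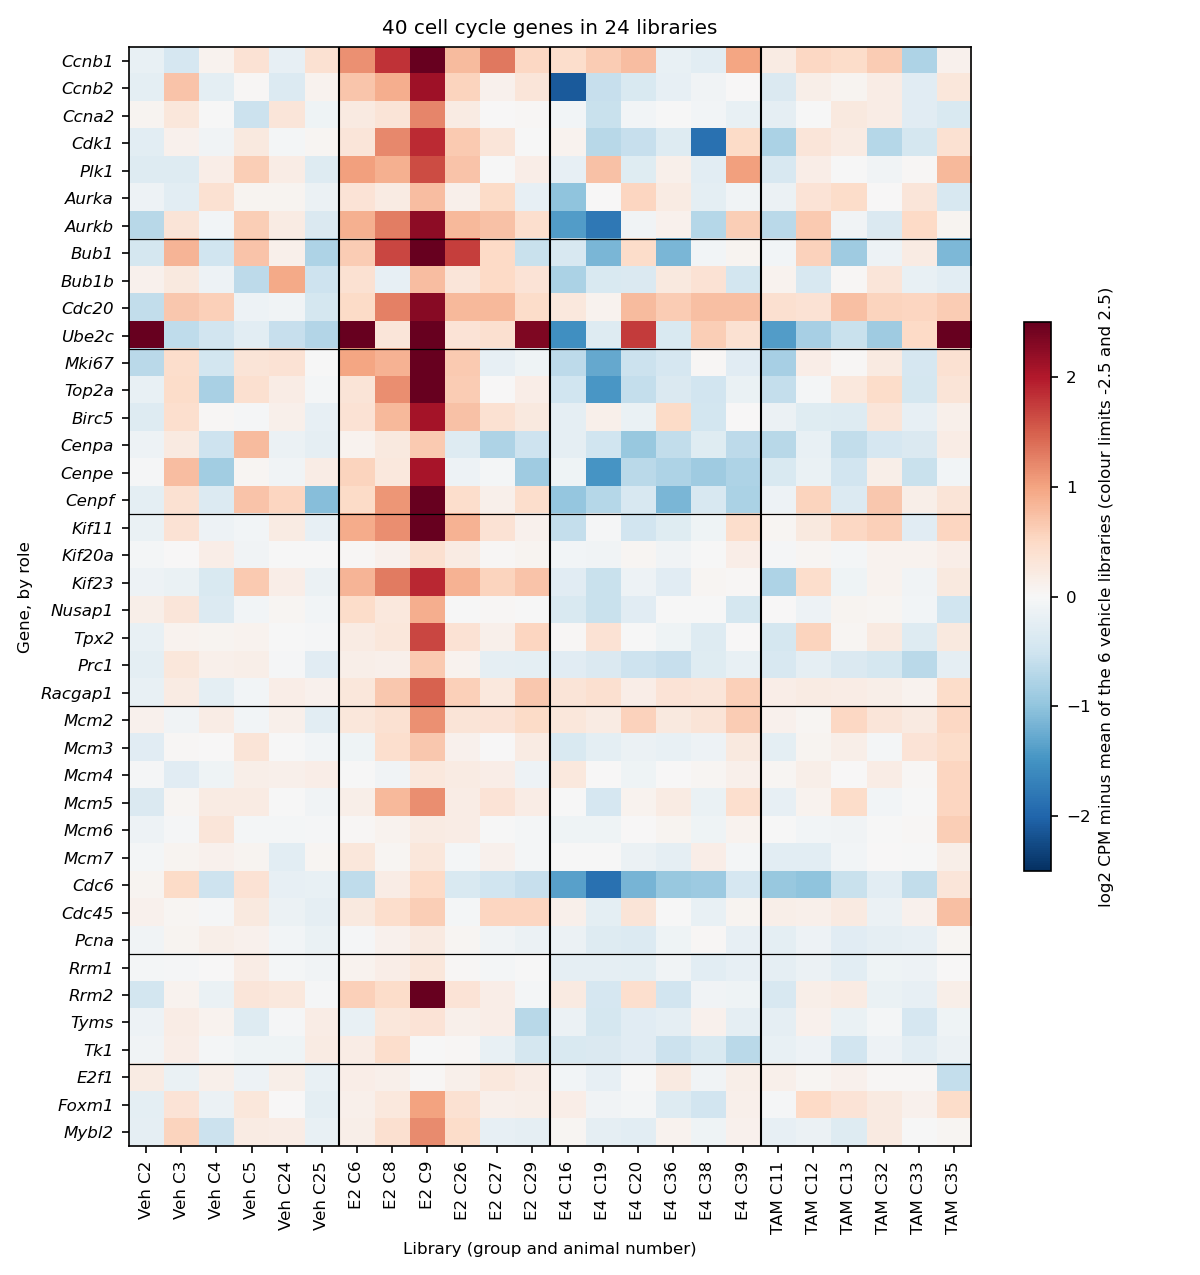
Heat map of log2 CPM minus the mean of the 6 vehicle libraries, with the 40 genes in rows by role and the 24 libraries in columns by group. E2 C9 is the darkest red column, the highest of all libraries for 33 genes, and Ube2c is darkest in the 6 libraries with at least 1.76 CPM of Tnnc2, which come from all 4 groups. Cdc6 is blue in all 6 E4 libraries.

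Some members were called in none of the comparisons. Mcm6 was 22.5, 23.7 and 30.1 CPM with vehicle and 23.7, 25.5 and 28.1 CPM with E2. E2f1, which switches on S-phase genes, was 7.07, 8.07 and 9.27 CPM with vehicle, 8.23 to 9.67 CPM with E2, 6.96 to 9.47 CPM with E4 and 5.34 to 8.85 CPM with TAM. Those ranges overlapped in every pair of groups. Kif20a lay at 7.87 to 11.1 CPM over all libraries, but its exons overlap those of Cdc23, a gene at 41.6 to 51.4 CPM.

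Another 130 cell cycle genes were listed by function beyond the 40. With E2, 6 of the 130 were higher and 0 lower (4.62%, near the 4.16% of all genes), all among 57 further mitotic genes, whose median log2 fold change was 0.56 (0.31 without E2 C9). They were the kinetochore gene Spc24 (1.30, adjusted P = 0.007), the passenger complex genes Incenp (0.41, adjusted P = 0.0145) and Cdca8 (0.49, adjusted P = 0.0397), and the spindle genes Dlgap5 (1.52, adjusted P = 0.0152), Hmmr (1.37, adjusted P = 0.0206) and Ckap2 (0.93, adjusted P = 0.0422). Without E2 C9, Spc24 (1.04, adjusted P = 0.0266) and Incenp (0.31, adjusted P = 0.0384) were the 2 of 130 called, beside 3.47% of all genes. Without vehicle C24 there were 3, beside 3.4%. In 40 further replication genes 0 were called (7 at an unadjusted P value under 0.05) and the median was 0.09 (-0.017 without E2 C9). With E4 against E2, 28 of the 130 were lower and 1 higher, beside 8.97% and 3.55% of all genes, and 22 of the 28 were mitotic genes. With all libraries, E2 C9 included, Hmmr fell most (-2.19, adjusted P = 0.000667). In the same fit Asf1b (-0.83), Ckap2 (-1.21), Troap (-1.52), Smc2 (-0.50), Ndc80 (-1.55), Rbl1 (-0.48), Slbp (-0.30), Shcbp1 (-1.01) and Pbk (-1.51) followed by P value. Without E2 C9, 8 of these 10 remained called, all but Shcbp1 and Pbk, and they were the 8 of 130 lower, with 0 higher, beside 7.12% of all genes called. The number called was 14 without E2 C8, 10 without E4 C19, 13 without E4 C20 and 17 without E4 C36. Over all genes these fits called 5.68%, 7.73%, 7.3% and 9.63%. With TAM against E2, 9 were lower and 0 higher (6.92%, near the 6.44% of all genes), among them the histone chaperone gene Asf1b (-0.94, adjusted P = 0.00218), which was the 1 gene called without E2 C9 (-0.73, adjusted P = 0.00548). That fit called 4.08% of all genes. Without E2 C29, 18 of the 130 were called, beside 8.08% of all genes. Leaving out TAM C11 or C33 gave 4, beside 4.78% and 4.72%. TAM against vehicle and against E4 each gave 0 of 130 (edgeR, 12 and 10 at an unadjusted P value under 0.05), beside 2.21% and 0.34% of all genes. DESeq2 gave 0 of the 40 members in both. The first comparison gave 1 of 130 by edgeR without TAM C35, beside 3.47%.

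With E4 against vehicle the further genes moved in both directions, 5 higher and 13 lower of 130 (4 and 15 without E2 C9), beside the 22% of all genes called. In all, 7 were called without vehicle C5, 10 without E4 C20 and 11 without vehicle C3 or E4 C19, C36 or C38. Over all genes these fits called 16.2%, 14.3%, 13%, 16.1%, 17.6% and 19%, in the order named. The securin gene Pttg1 (-0.45, adjusted P = 0.000895), the phosphatase gene Cdc25b (-0.62, adjusted P = 0.00129), the origin recognition gene Orc6 (-0.45, adjusted P = 0.00257), Tipin (-0.33), Tfdp2 (-0.26), Gmnn (-0.68), Hjurp (-0.24) and the kinase gene Cdk2 (-0.41, adjusted P = 0.0265) fell. Gmnn encodes geminin, the inhibitor of origin licensing, so an activator of licensing (Cdc6) and its inhibitor both fell. The maintenance methyltransferase gene Dnmt1 (0.31, adjusted P = 0.00404) and the clamp loader gene Rfc5 (0.29, adjusted P = 0.0261) rose.

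Among regulators of the decision to enter S phase, the cyclin D1 gene Ccnd1 was 35.4, 57.5 and 63.8 CPM with vehicle, 35.7 to 57.9 CPM with E2, 51.8 to 59.3 CPM with E4 and 46.6 to 76.0 CPM with TAM, and its adjusted P values in the 3 comparisons with vehicle were 0.890, 0.761 and 0.281. The CDK inhibitor gene Cdkn1b (p27) was 80.0, 113 and 139 CPM with vehicle and 129, 141 and 162 CPM with E4, a log2 fold change of 0.36 (SE 0.12, adjusted P = 0.0378), and it was not called with E2 (adjusted P = 0.612) or TAM (adjusted P = 0.258). Cdkn1c (p57) was 8.63, 11.7 and 20.6 CPM with vehicle and 7.28, 8.73 and 12.2 CPM with E4 (-0.49, SE 0.18, adjusted P = 0.0484, or 0.053 without E2 C9). Its 6 E2 libraries lay at 8.02 to 9.41 CPM, with a log2 fold change of -0.58 (SE 0.18) that missed the threshold (adjusted P = 0.0658). Cdkn1a (p21) was 26.1, 39.5 and 74.4 CPM with vehicle and was not called in any comparison, with log2 fold changes of 0.48 (E2), 0.50 (E4) and 0.37 (TAM) against vehicle.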

How the data were processed

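The authors trimmed reads with Trim Galore, and the submitters' processing notes name bcl2fastq 2.17, Bowtie2, featureCounts and builds mm10 and GRCm38. Libraries were made with a stranded mRNA kit. The deposited tables hold estimated counts per gene, 1 per library, not normalized by the authors. Where genes overlap, 41.4% of values have decimals, against 0.951% elsewhere, and 90.0% of these decimals equal 0.5, as reads divided between genes give. Counts were rounded to whole numbers.

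Libraries were grouped by title, since the treatment field of the E4 libraries also reads placebo. Nothing says that libraries of a group share an animal, and p-values measure the spread between these libraries. Genes were tested in 1 fit of 24 libraries with edgeR 4.0.16 in R 4.3.3 (quasi-likelihood test, TMM scaling and its standard low-count filter, with Benjamini-Hochberg adjustment over 25033 genes, called at an adjusted P value under 0.05). CPM values use TMM-scaled library sizes. Totals ranged from 24647246 to 64221401, and they limit the precision of the low genes.

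The members and gene lists were chosen with earlier results of these data known. Members named are those called, at most 20 a comparison by P value, or the 3 smallest P values where under 3 were called, plus Mki67 against vehicle. Of the 130 further genes, called ones are named (at most 10 a comparison) with Ccnd1, Cdkn1a, Cdkn1b and Cdkn1c. Alternatives covered DESeq2 1.42.0, scaling, filters, thresholds, libraries left out and marker covariates. Figures were drawn in Python 3.11.15 with matplotlib 3.10.9.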

Additional observations from a re-analysis of the deposited data

Results flagged for a closer look

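In each group of 6 libraries, the gap from the highest or lowest library to its nearest neighbour was set against the group's range. A value was flagged where that share exceeded Dixon's critical value, and 46 values were flagged in 208 groups. About 10.4 would be expected from independent groups of normally distributed values, but these groups share libraries. The 46 include 34 in 160 groups of the 40 cell cycle genes. E2 C9 accounted for 22 of the 46. Among the cell cycle genes, it stood above the other E2 libraries with 11 CPM of Mcm2 (others 6.07 to 7), 6.34 CPM of Prc1 (3.40 to 4.47), 37.4 CPM of Mki67 (4.19 to 9.47), 3.22 CPM of Ccnb1 (0.493 to 1.21), 6.88 CPM of Racgap1 (2.98 to 3.97), 11.2 CPM of Kif11 (1.70 to 3.52), 2.09 CPM of Cdc20 (0.592 to 1.04) and 6.18 CPM of Birc5 (1.73 to 2.55). It also held 5.92 CPM of Cenpf (1.11 to 2.20), 22.9 CPM of Top2a (2.75 to 6.05), 3.57 CPM of Ccnb2 (0.881 to 1.54), 3.72 CPM of Aurkb (1.06 to 1.91), 2.37 CPM of Bub1 (0.173 to 0.844), 3.46 CPM of Cenpe (0.444 to 1.21), 9.27 CPM of Rrm2 (1.58 to 2.48), 10.97 CPM of Ccna2 (4.74 to 5.86), 6.16 CPM of Tpx2 (2.10 to 2.81), 3.07 CPM of Mybl2 (1.16 to 1.86) and 5.31 CPM of Foxm1 (2.89 to 3.44). In the same library, T cell markers summed to 184 CPM (9.93 to 24.7 in the others), thymocyte markers other than Cd1d1 to 326 CPM (0.567 to 14.1) and epithelium markers to 63.2 CPM (5.32 to 10.01). The part of those cells in the cell cycle values was not tested beyond the fits without E2 C9 and with the marker covariate.

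The other outlying values were Rrm1 at 31.4 CPM in vehicle C5 (26 to 27.9 in the others) and at 26 CPM in E4 C36 (22.9 to 24), and Ccnb2 at 1.35 CPM in vehicle C3 (0.649 to 0.871). Mcm6 was 30.1 CPM and Kif20a 9.47 CPM in vehicle C4 (22.5 to 24 and 7.87 to 8.43 in the others), Ube2c was 4.05 CPM in vehicle C2 (0.382 to 0.527), Ccna2 was 3.20 CPM in E4 C19 (4.14 to 4.69) and Mcm3 was 8.84 CPM in E4 C39 (5.74 to 6.85). TAM C35 stood above the other TAM libraries with 3.39 CPM of Racgap1 (2.64 to 2.83), 1.11 CPM of Plk1 (0.482 to 0.714), 4.55 CPM of Ube2c (0.241 to 0.896), 13.9 CPM of Mcm4 (9.62 to 10.9), 37.8 CPM of Mcm6 (22.95 to 25.04) and 3.57 CPM of Cdc45 (1.92 to 2.48), and below them with 5.34 CPM of E2f1 (8.17 to 8.85). E4 C38 had a total of 24600000 counts when rounded, against at least 37500000 in the other E4 libraries. Marker sums stood apart for thymocyte markers in E4 C16 (1.13 CPM), macrophage markers in vehicle C5 (611 CPM), skeletal muscle markers in TAM C35 (254 CPM) and sympathetic ganglion markers in TAM C35 (172 CPM). They also did for thyroid and parathyroid markers in vehicle C2 (29.1 CPM) and E4 C38 (2977 CPM, or 2980 when rounded), epithelium markers in E4 C38 (37.5 CPM) and germinal centre and plasma cell markers in E2 C27 (246 CPM).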

How the results depend on the processing

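TAM against vehicle and TAM against E4 gave 0 called genes of the 40 under every alternative run, so those tests say nothing about stability. For the counts of called genes, the values below are those that differed by more than 1.5 times from the 5 (E4 against vehicle), 7 (E2 against vehicle), 18 (E4 against E2) and 8 (TAM against E2) reported, and the cause was not tested. E4 against vehicle gave 0 with the B cell covariate and in the second number series, 1 at an adjusted P value under 0.01 or with an absolute log2 fold change over 1, 2 without a filter on low counts or without vehicle C5 and TAM C35, 3 in the first series, with the series or ganglion markers as a covariate or without TAM libraries, and 8 with the macrophage covariate and without E2 C9. Over all genes, the B cell covariate then gave 0.356%, the second series 0.0196%, no filter 10% and the first series 12.1%, against 22%. The fold threshold gave 2.51%, the series covariate 20.8% and the ganglion covariate 18.5%. Leaving out TAM, or E2 C9 with the macrophage covariate, gave 21.7%, and leaving out vehicle C5 and TAM C35 gave 22.2%. Shares of all genes at 0.01 were not computed. E2 against vehicle gave 0 with the macrophage covariate, with it and without E2 C9, and in the second series, 1 with only the groups compared, 2 in the first series, 3 at 0.01, with the skeletal muscle covariate or without vehicle C5, E2 C9, E4 C38 and TAM C35, and 4 with the fold threshold. It gave 11 with DESeq2, with the thymocyte covariate or without vehicle C5 and TAM C35, and 19 with the ganglion covariate, where calls over all genes also moved from 4.16% to 6.19%, 4.31%, 6.62% and 8.8%. For its lower counts, calls over all genes were 3.56% and 3.67% (macrophage covariate, with and without E2 C9), 0.361% (second series) and 1.34% (first series). They were 2.89% (only the groups compared), 3.48% (skeletal muscle covariate), 5.29% (without those 4 libraries) and 1.27% (fold threshold). E4 against E2 gave 0 with the macrophage covariate, with it and without E2 C9, and in the second series, 3 with the B cell covariate, 5 with the T cell or thymocyte covariate, 7 at 0.01 and 10 without those 4 libraries. Over all genes, calls fell from 12.5% to 0% with the macrophage covariate, with or without E2 C9, and in the second series. They were 2.83%, 3.5% and 4.36% with the B cell, T cell and thymocyte covariates, and 12.5% without those 4 libraries. TAM against E2 gave 0 with the macrophage covariate, with it and without E2 C9, and in the second series, 1 at 0.01 or with only the groups compared, 3 without those 4 libraries, 4 with the B cell, T cell or skeletal muscle covariate or without a filter, 5 with the thymocyte covariate, upper-quartile scaling or the fold threshold, 14 with DESeq2, 15 with the ganglion covariate and 16 without vehicle C5 and TAM C35, the last 3 beside 9.01%, 13.3% and 13.2% of all genes against 6.44%. Over all genes, the macrophage covariate gave 2.67%, or 1.86% without E2 C9, and the second series gave 0.451%. Only the groups compared gave 4.9% and leaving out those 4 libraries 7.55%. The B cell, T cell and skeletal muscle covariates gave 4.8%, 4.59% and 5.84%, and no filter gave 2.8%. The thymocyte covariate gave 5.23%, upper-quartile scaling 5.19% and the fold threshold 1.65%. Leaving out each library in turn gave 2 (without vehicle C5) to 9 (without E2 C9) for E4 against vehicle, with 3 without vehicle C3, E2 C26, TAM C32 or E4 C16, C19 or C20. It gave 4 (without vehicle C25 or E2 C9) to 10 for E2 against vehicle and 9 (without E2 C9) to 23 for E4 against E2. For TAM against E2 it gave 2 (without E2 C9) to 13 (without E2 C29), with 4 without E2 C8 or TAM C11, C13, C32 or C33 and 5 without TAM C12. Over all genes, E4 against vehicle gave 16.2% without vehicle C5 and 22.1% without E2 C9. E2 against vehicle gave 3.42% without vehicle C25 and 3.47% without E2 C9. Without E2 C9, E4 against E2 gave 7.12% and TAM against E2 gave 4.08%. The latter gave 8.08% without E2 C29. The thymocyte and skeletal muscle covariates and the settings that leave out 4 libraries or combine the macrophage covariate with leaving out E2 C9 were chosen after seeing the data.

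The alternative settings gave 1998 results for the named genes. Against the main fit, 1585 were classed as the same, 390 as weaker and 6 as stronger, and 17 changed sign. The log2 fold change of Mki67 became 0.0822 and 0.0538 for E4 against vehicle with the B and T cell covariates, -0.0295 for E2 against vehicle in the second series, and 0.355, 0.193, 0.0375 and 0.0947 for TAM against vehicle with the B cell, T cell, ganglion and thymocyte covariates, and leaving out each library in turn gave -0.188 to 0.0442 for it. That of Rrm1 became 0.00344 for TAM against vehicle in the second series, and 0.0289 for TAM against E2 with the macrophage covariate, or 0.0663 without E2 C9 as well. For E4 against E2, Cdk1 became 0.193 with the macrophage covariate, and with it and without E2 C9 Cdk1 became 0.488, Aurkb 0.256, Rrm2 0.0544 and Rrm1 0.00583. No paired analysis was possible because the groups share no animal numbers.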
